A study of Rattus norvegicus with 22 samples.

Results

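The genes that build cholesterol and fatty acids were compared between oral squamous cell carcinoma (OSCC) and adjacent, phenotypically normal tongue tissue. The set holds 36 genes listed for their function: 17 enzymes of cholesterol synthesis, 5 regulators of the SREBP system and 14 enzymes that make, elongate or desaturate fatty acids. They were found by the gene name that the array gives to its probes, with the brightest probe over all arrays for each gene. In all, 35 of the 36 were found among 19167 gene symbols on the array. The exception was Srebf1, which has no probe under that name.

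Both tissues came from the same 11 male F344 rats, aged approximately 33 weeks, which had drunk water containing 20 ppm of the carcinogen 4-nitroquinoline-1-oxide (4-NQO) for 10 weeks. From every animal came 1 carcinoma piece and 1 normal piece of tongue, collected 23 to 26 weeks after the first exposure, so 4-NQO exposure is shared by both groups. The labels list no treatment for the normal pieces and carry the word untreated in every title, whereas the deposited protocol takes both pieces from exposed rats; the protocol is followed here. Adjacent tissue is therefore not tissue of unexposed rats, and malignancy was read under the microscope in fixed tissue, not in the frozen piece that was measured. RNA of each piece was hybridized to its own one-colour array, and a level is the log2 signal of a probe relative to the 75th percentile of its array. A difference is the OSCC level minus the normal level, in log2 units.

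Cholesterol is built from acetyl-CoA through mevalonate, farnesyl diphosphate, squalene and lanosterol, and fatty acids are built from acetyl-CoA through malonyl-CoA. Transcription of both sets of enzymes is driven by the SREBP factors, which are made as membrane-bound precursors. When sterols run low, the escort protein SCAP carries the precursor to the Golgi for cleavage, and when sterols are plentiful the INSIG proteins hold SCAP in the endoplasmic reticulum. In tongue, keratinocytes make lipids for membranes and for the epithelial barrier, and skeletal muscle burns fatty acids.

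SREBP factors are known to work with NF-Y, which binds CCAAT, and with Sp1, which binds GC boxes. Promoter sequences (250 bases before the transcription start, RefSeq, assembly GRCr8) were matched for 30 of the 36 genes; those not matched were Pmvk, Fdft1, Sqle, Acaca, Fasn and Elovl6. On either strand, the letters CCAAT occurred in 24 of the 30 (80%), against 34.3% of 27457 promoters of the same length. GGGCGG occurred in 23 (76.7%), against 32.4% of all promoters. A shortened sterol regulatory element, CACNCCAC, occurred in 4 (Ebp, Insig1, Elovl5 and Fads1), against 4.84% of all, and the longer TCACNCCAC, which contains it, in 0, against 0.976%. CACGTG occurred in 4, against 5.79% of all. In lists of neighbouring pathways, CCAAT occurred in 11 of 19 promoters of other sterol and lipid synthesis genes (57.9%), in 6 of 12 of sterol uptake, transport and storage (50%) and in 0 of 12 of fatty acid uptake and oxidation. GGGCGG occurred in 11 (57.9%), 7 (58.3%) and 6 (50%) of these promoters. A match is a run of letters and was not tested as a binding site.

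The promoters of 8 genes whose levels differed between the tissues are given here to show how many copies of CCAAT each held and where. Capitals mark CCAAT, or ATTGG where it lies on the other strand, and each sequence runs 5′ to 3′ along its gene and ends at the base before the start.
Hmgcs1, chr2:53382054-53382303, plus strand: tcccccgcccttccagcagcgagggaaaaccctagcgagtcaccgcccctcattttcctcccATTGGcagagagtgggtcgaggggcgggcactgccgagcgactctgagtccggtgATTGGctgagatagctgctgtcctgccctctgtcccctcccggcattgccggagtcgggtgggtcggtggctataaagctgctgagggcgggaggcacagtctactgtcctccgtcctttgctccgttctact
Nsdhl, chrX:155817110-155817359, plus strand: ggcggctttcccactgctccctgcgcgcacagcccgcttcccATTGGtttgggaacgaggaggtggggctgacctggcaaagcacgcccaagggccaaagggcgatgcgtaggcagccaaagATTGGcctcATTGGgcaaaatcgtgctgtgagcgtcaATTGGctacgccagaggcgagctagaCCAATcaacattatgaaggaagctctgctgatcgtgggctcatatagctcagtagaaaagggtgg
Sc5dl (Sc5d), chr8:51538278-51538527, minus strand: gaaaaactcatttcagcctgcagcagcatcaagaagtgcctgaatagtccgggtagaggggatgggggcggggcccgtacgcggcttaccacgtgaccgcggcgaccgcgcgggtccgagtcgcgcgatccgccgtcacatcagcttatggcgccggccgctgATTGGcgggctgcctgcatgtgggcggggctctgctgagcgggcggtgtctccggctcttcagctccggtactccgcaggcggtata
Dhcr7, chr1:208444184-208444433, plus strand: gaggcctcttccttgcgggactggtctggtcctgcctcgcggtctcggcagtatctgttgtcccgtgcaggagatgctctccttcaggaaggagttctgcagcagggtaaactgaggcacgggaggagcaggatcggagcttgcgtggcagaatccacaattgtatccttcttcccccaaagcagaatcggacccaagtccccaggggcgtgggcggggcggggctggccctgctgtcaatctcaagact
Insig1, chr4:8057770-8058019, minus strand: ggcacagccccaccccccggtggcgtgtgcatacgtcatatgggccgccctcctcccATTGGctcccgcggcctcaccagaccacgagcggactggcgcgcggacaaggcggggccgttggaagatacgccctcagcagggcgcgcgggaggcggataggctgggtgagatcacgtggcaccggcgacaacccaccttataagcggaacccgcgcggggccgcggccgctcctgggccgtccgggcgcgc
Elovl5, chr8:87670914-87671163, plus strand: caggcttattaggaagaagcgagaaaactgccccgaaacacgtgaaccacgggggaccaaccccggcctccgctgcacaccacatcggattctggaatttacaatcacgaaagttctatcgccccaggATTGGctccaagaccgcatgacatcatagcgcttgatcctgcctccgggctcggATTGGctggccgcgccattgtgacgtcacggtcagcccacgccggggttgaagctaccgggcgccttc
Fads2, chr1:216172034-216172283, minus strand: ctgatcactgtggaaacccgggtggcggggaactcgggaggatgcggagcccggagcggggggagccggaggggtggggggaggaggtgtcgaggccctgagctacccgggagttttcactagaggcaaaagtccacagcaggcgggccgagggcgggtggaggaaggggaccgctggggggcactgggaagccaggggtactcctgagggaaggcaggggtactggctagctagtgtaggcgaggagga
Acacb, chr12:48138215-48138464, minus strand: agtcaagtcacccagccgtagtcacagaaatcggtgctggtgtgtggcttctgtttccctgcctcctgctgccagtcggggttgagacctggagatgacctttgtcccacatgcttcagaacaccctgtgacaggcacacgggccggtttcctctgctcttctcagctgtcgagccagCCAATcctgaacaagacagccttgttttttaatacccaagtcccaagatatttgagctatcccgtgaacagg
CCAAT was present in all 8 matched genes that rose by less than 2-fold, in 12 of the 14 matched genes that did not pass the test, and in 1 of the 4 matched genes that fell by less than 2-fold. Of the 2 genes with a measured rise of at least 2-fold, 1 held it (Elovl5). The 1 gene that fell by at least 2-fold, Acacb, held it too. Nsdhl, which rose, held 5 copies, and Hmgcs1, which fell, held 2. Neither Dhcr7, which fell, nor Fads2, which rose, held any. No test was made of this arrangement.

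The arrays differed between tissues in ways that touch every gene. The 75th percentile of signal ran from 236.75 to 654.9 in normal tissue and from 338.68 to 1414 in OSCC. Normal tissue filled 3 slides and OSCC filled 4 different ones, so slide and tissue cannot be told apart. All normal arrays and the OSCC arrays of rats 4 and 9 were scanned on one day, while the remaining 9 carcinomas had a separate scan day. The median difference of all 30367 probes was -0.24, and it became -0.03 after quantile normalization and -0.44 after scaling each array to its median. Markers of skeletal muscle were lower in OSCC for 6 of 8 genes, and the sum of their linear levels (signal over the 75th percentile of the array) ran from 1060 to 2280 in normal tissue and from 56.1 to 2510 in OSCC (medians 1610 and 381). Markers of myelin were lower for 4 of 5, of endothelium for 3 of 5, of basal keratinocytes for 1 of 5 and of sebaceous gland for 1 of 5. Markers of serous gland were higher for 7 of 7, of neutrophils for 4 of 4, of macrophages for 5 of 6, of fibroblasts for 4 of 5 and of suprabasal keratinocytes for 1 of 6. Neither adipocyte markers (0 of 7) nor proliferation genes (0 of 5) passed the test. Basal keratinocyte markers, which define the labelled epithelium, summed to 217 to 334 in normal tissue (median 293) and 24.1 to 469 in OSCC (median 349). The lowest of these was the OSCC piece of rat 24, which the labels call OSCC like the others; the next lowest OSCC piece had 145. Its muscle markers summed to 2310, its serous gland markers to 2480 and its neutrophil markers to 1.5, the lowest among OSCC pieces. Results that rest on rat 24 are therefore given with and without it. In a whole piece of tissue, fewer cells of a type and less RNA per cell cannot be told apart.

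Lipid synthesis did not move as a block in OSCC. Of the 35 genes, 10 rose and 5 fell at an adjusted p below 0.05 (limma with rat as block, Benjamini-Hochberg over all probes), and 20 did not pass. The share that passed was 42.9%, near the background of 45% of all gene symbols. Those that rose made 28.6% of the set, against a background of 17%, and those that fell made 14.3%, against 27.9%. When a change of at least 2-fold was also required, 2 genes were called higher, Fads2 and Elovl5, and 1 lower, Acacb, which is 8.57% of the set against 14.7% of all gene symbols (7.48% higher and 7.24% lower). The Fads2 call rests on its measured difference; since normal tissue was not well above background for it, the fold that can be stated is at least 1.5, and its call was lost with normexp background correction. Elovl5 fell short of 2-fold with quantile normalization, median scaling or normexp, though it passed the test in each. The median difference of the 35 genes was 0.10, and that of all gene symbols was -0.21.

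The genes were also compared within scan days, although only 2 pairs had both pieces scanned on one day. In rats 4 and 9, all 15 genes that passed had the same sign as in the 11 pairs. These 2 rats are among the 11 pairs by which the 15 genes passed, so the shared sign is not a separate check. How many of all gene symbols shared their sign in this way is not given here. With scan day as a further term, only those 2 rats inform the tissue difference, so its signs repeat theirs. In that fit 0 of 35 genes passed, and 4 had an unadjusted p below 0.05 in limma. In that same fit 3 of 30367 probes were called at all. Whether scan day had a part in these differences was not tested beyond this. In the 9 pairs scanned on 2 days, 13 of the 15 passed. Scaling each array to its median changed the split of the genes that passed to 7 higher and 7 lower. A total of 8 genes passed under each of 5 other scalings and background corrections and with any 1 rat left out: Nsdhl, Sc5dl, Cyb5r3, Insig1, Scap, Elovl5, Fads3 and Acacb. Among the 5, the authors' own scaled values rest on the same signal and percentile as the values here, so they add little.

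**Figure D1:**
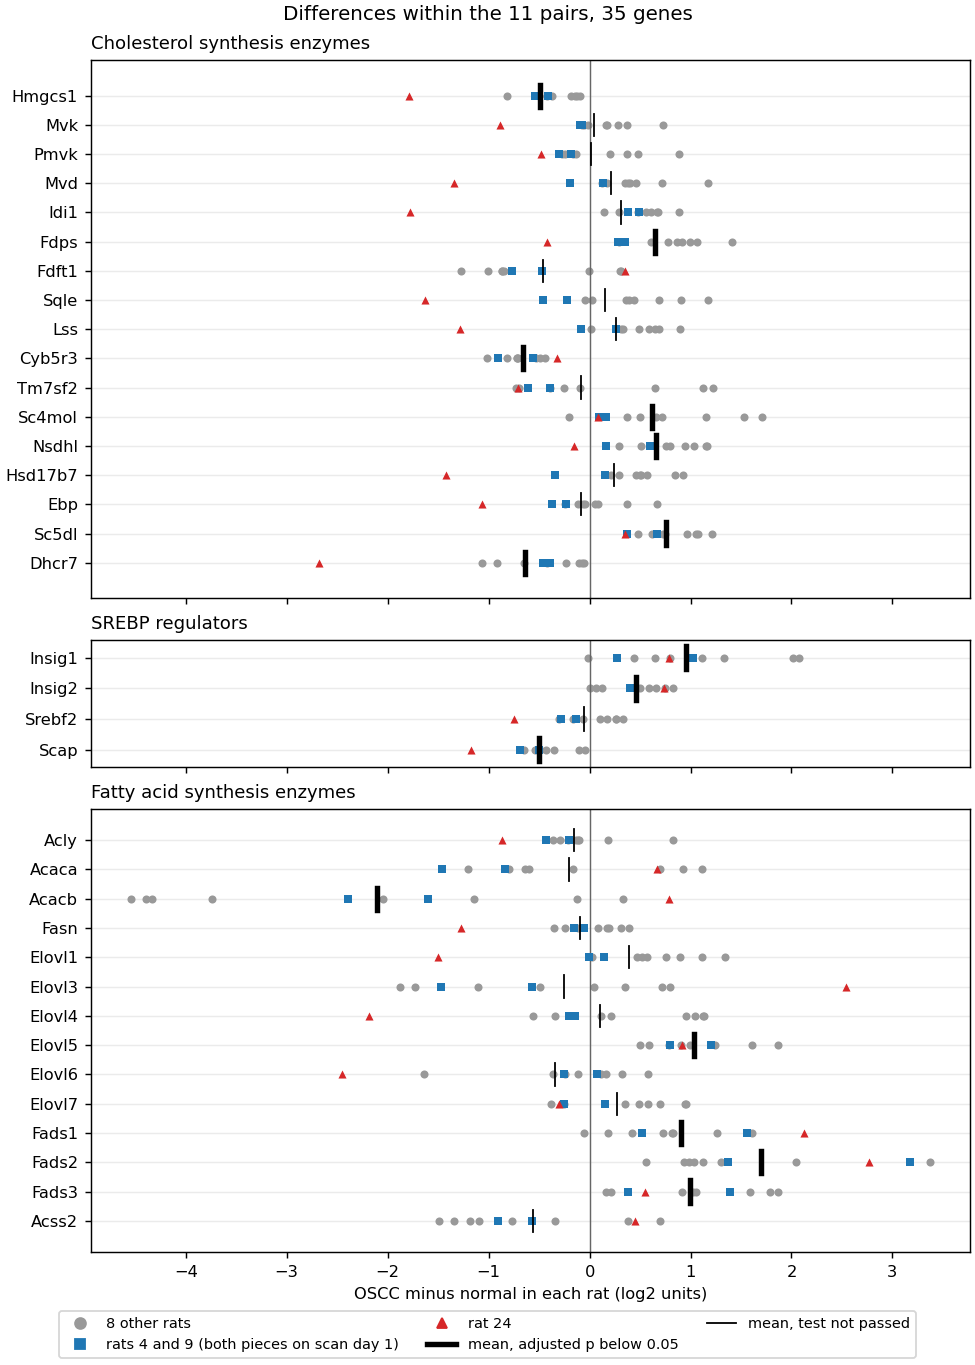
Difference between OSCC and normal tissue in each of 11 rats (x axis, log2 units) for the 35 genes (rows), by group; points are rats, vertical bars the mean of 11, thick where the adjusted p was below 0.05. In the cholesterol group rat 24 (red triangles) is the lowest rat for 13 of 17 enzymes, and in the fatty acid group Acacb has the widest spread, from -4.55 to 0.78.

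Enzymes of the cholesterol pathway differed in direction. Of its 17 enzymes, all well above background on all 22 arrays, 4 rose (Fdps, Sc4mol, Nsdhl and Sc5dl), 3 fell (Hmgcs1, Cyb5r3 and Dhcr7) and 10 did not pass, and 0 reached 2-fold with the test. That is 41.2% passed against 45% of all gene symbols, 23.5% higher against 17% and 17.6% lower against 27.9%. The 4 that rose make farnesyl diphosphate or act on sterols after lanosterol. Those that fell include an early enzyme and a late reductase of the pathway. The median of the 17 differences was 0.15, and they ran from -0.66 to 0.75.

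Hmgcs1 makes HMG-CoA, the substrate from which mevalonate is formed. Its level ran from 3.52 to 4.22 in normal pieces around a median of 3.85, and from 2.34 to 3.73 in carcinomas around 3.48. The groups overlapped, but 6 OSCC arrays were below every normal array, and OSCC was lower in each of the 11 rats. Hmgcs1 fell by 0.49 on the log2 scale (SE 0.15, adjusted p = 0.023 in limma), a 1.41-fold decrease. Hmgcs1 no longer passed in limma after quantile normalization (adjusted p = 0.082), with normexp background correction (0.1) or in the 9 pairs scanned on 2 days (0.078). Nor did it pass with slide as a random block or without rat 13. The probe is at chr2:51754514-51754573 in assembly rn4.

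The kinases and the decarboxylase that carry mevalonate to isopentenyl diphosphate, Mvk, Pmvk and Mvd, did not pass. Their differences were 0.05 for Mvk, 0.01 for Pmvk and 0.22 for Mvd, with adjusted p in limma from 0.34 to 0.94. Idi1, the isomerase that follows, had a difference of 0.31 (SE 0.21, adjusted p = 0.23 in limma), with a higher value in OSCC in 10 of 11 rats. Rat 24 was the exception, at -1.78. Fdps, which joins the isoprene units into farnesyl diphosphate, rose 1.57-fold (difference 0.65, SE 0.16, adjusted p = 0.0069 in limma). Its second probe had a difference of 0.32 (adjusted p = 0.082).

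From farnesyl diphosphate the route to sterols begins with squalene synthase, encoded by Fdft1, which had a difference of -0.47 (SE 0.18) and missed the threshold (adjusted p = 0.05 when rounded). Sqle, the squalene epoxidase and a rate-limiting step after mevalonate formation, ran from 0.74 to 2.43 in normal pieces around a median of 1.72, and from 0.08 to 2.87 in carcinomas around 1.77. The ranges overlapped almost fully, and 7 rats were higher and 4 lower. The difference of 0.15 (SE 0.22, 95% interval -0.33 to 0.63) did not pass (adjusted p = 0.59 in limma). Lss, which closes lanosterol's rings, had a difference of 0.26 (adjusted p = 0.23).

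After lanosterol, 3 enzymes rose. Sc4mol, now named Msmo1, which acts in the removal of methyl groups from the sterol ring, rose 1.53-fold (difference 0.62, SE 0.18, adjusted p = 0.021 in limma). Nsdhl, the dehydrogenase acting next, rose 1.58-fold (0.66, SE 0.14, adjusted p = 0.0034), in 10 of 11 rats. Hsd17b7, the ketoreductase of the same complex, had a difference of 0.24 that did not pass (adjusted p = 0.3). Sc5dl, now Sc5d, the sterol desaturase near the end of the pathway, rose 1.68-fold (0.75, SE 0.11, adjusted p = 0.00056) and was higher in all 11 rats, as were 4.68% of all gene symbols. Its levels ran from -0.67 to 0.28 in normal pieces around a median of -0.36, and from -0.18 to 0.97 in carcinomas around 0.60, with 8 OSCC arrays above every normal array. Tm7sf2, a sterol reductase, and Ebp, an isomerase, had differences of -0.08 and -0.09 and did not pass. Sc4mol no longer passed with median scaling (limma, adjusted p = 0.08), with normexp (0.14) or with slide as a random block. Fdps did not pass with median scaling (0.05 when rounded) or normexp (0.081).

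Dhcr7, a reductase that completes cholesterol, fell by 0.64 on the log2 scale (SE 0.22, adjusted p = 0.033), and Cyb5r3 fell by 0.66 (SE 0.10, adjusted p = 0.00054). CYB5R3 is the reductase that passes electrons to cytochrome b5 and serves many oxidases besides those of sterols. Both were lower in OSCC in all 11 rats, as were 5.92% of all gene symbols. Dhcr7 was lowest in rat 24, at -2.68, and its difference without that rat was -0.44 (adjusted p = 0.017). Dhcr7 no longer passed when any of rats 4, 9, 13, 16 or 21 was left out, or with slide as a random block. Nor did it pass in the 9 pairs scanned on 2 days (limma, adjusted p = 0.082), with the percentile of detected probes (0.063) or with normexp (0.088).

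Rat 24 stood apart in this pathway. Its OSCC piece was below its normal piece for 14 of 17 enzymes, with a median difference of -0.89, and it gave the lowest difference of any rat for 13 of them. In the other 10 rats the medians of the 17 differences lay between -0.22 and 0.89. Without rat 24, 12 of the 17 enzymes passed, 8 higher and 4 lower, in place of 7. The enzymes that joined were Mvd, Idi1, Lss and Hsd17b7, which were higher, and Fdft1, which was lower. Mvd then had a difference of 0.37, Idi1 of 0.52, Lss of 0.41, Hsd17b7 of 0.41 and Fdft1 of -0.55, with adjusted p from 0.0021 to 0.034. Leaving out rats 21, 22 and 24, the 3 rats in which the muscle gene Ckm was higher in OSCC, gave 6 higher and 4 lower. With any other single rat left out, 5 to 8 of the 17 enzymes passed. The number of probes called on the whole array, where a 2-fold change is also required, grew too. It was 2083 higher and 2118 lower with all rats, and 2213 and 2586 without rat 24. Without rats 21, 22 and 24 it was 2639 and 4285. The share of all gene symbols that passed in these reduced sets is not given here. The 12 of 17 therefore cannot be set against a background and does not show a gain particular to this pathway. Whether the low content of keratinocyte markers in the OSCC piece of rat 24 had a part in its values was not tested.

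The SREBP regulators did not move one way. Insig1, a well-known SREBP target that retains SCAP, rose, as did its relative Insig2, while Scap, the escort, fell and Srebf2, the factor most concerned with cholesterol, did not pass. The median over the 4 genes measured was 0.20. None reached 2-fold with the test.

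Insig1 levels ran from -0.28 to 1.60 in normal pieces around a median of 0.46, and from 0.65 to 2.92 in carcinomas around 1.20. The groups overlapped, with 4 OSCC arrays above every normal array, and OSCC was higher in 10 of 11 rats. The rise was 1.94-fold (difference 0.95, SE 0.19, adjusted p = 0.0029 in limma). In rats 4 and 9 the differences were 0.27 and 1.03. Insig2 rose 1.38-fold (0.46, SE 0.11, adjusted p = 0.007 in limma) and was higher in all 11 rats. It did not pass with median scaling (adjusted p = 0.076) or with normexp (0.1). The second, dimmer Insig2 probe also had a difference of 0.46, with a larger error (SE 0.23, adjusted p = 0.12).

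Scap fell by 0.50 on the log2 scale (SE 0.11, adjusted p = 0.0049 in limma), in all 11 rats. Srebf2 ran from 2.20 to 2.80 in normal pieces around a median of 2.52, and from 1.96 to 2.73 in carcinomas around 2.47. The ranges were nearly the same, with 5 rats higher and 6 lower. Its difference was -0.05 (SE 0.12, 95% interval -0.31 to 0.20, adjusted p = 0.72), and it was above 0 after quantile normalization (0.04) and with the percentile of detected probes (0.03). Srebf1, the factor most concerned with fatty acids, was not measured by name. A probe that the array describes as SREBP-1 ran from -0.86 to -0.16 in normal tissue and from -1.11 to 0.97 in OSCC, with a difference of 0.35 (SE 0.24, adjusted p = 0.24) and 6 rats higher against 5 lower.

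Insig1 was also set against the 17 cholesterol enzymes over the rats. Rats 17 and 21 had the largest Insig1 differences and stood apart from the other 9, so no correlation over all rats is given. In the 9 others the correlation was highest for Sc4mol, at 0.76 (Pearson; Spearman 0.73), followed by Nsdhl at 0.49 (Spearman 0.63). None of the 17 passed the two-sided exact permutation test after adjustment over the 17 (lowest adjusted p = 0.29). In the 9 pairs scanned on 2 days none passed either (lowest adjusted p = 0.19).

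**Figure D2:**
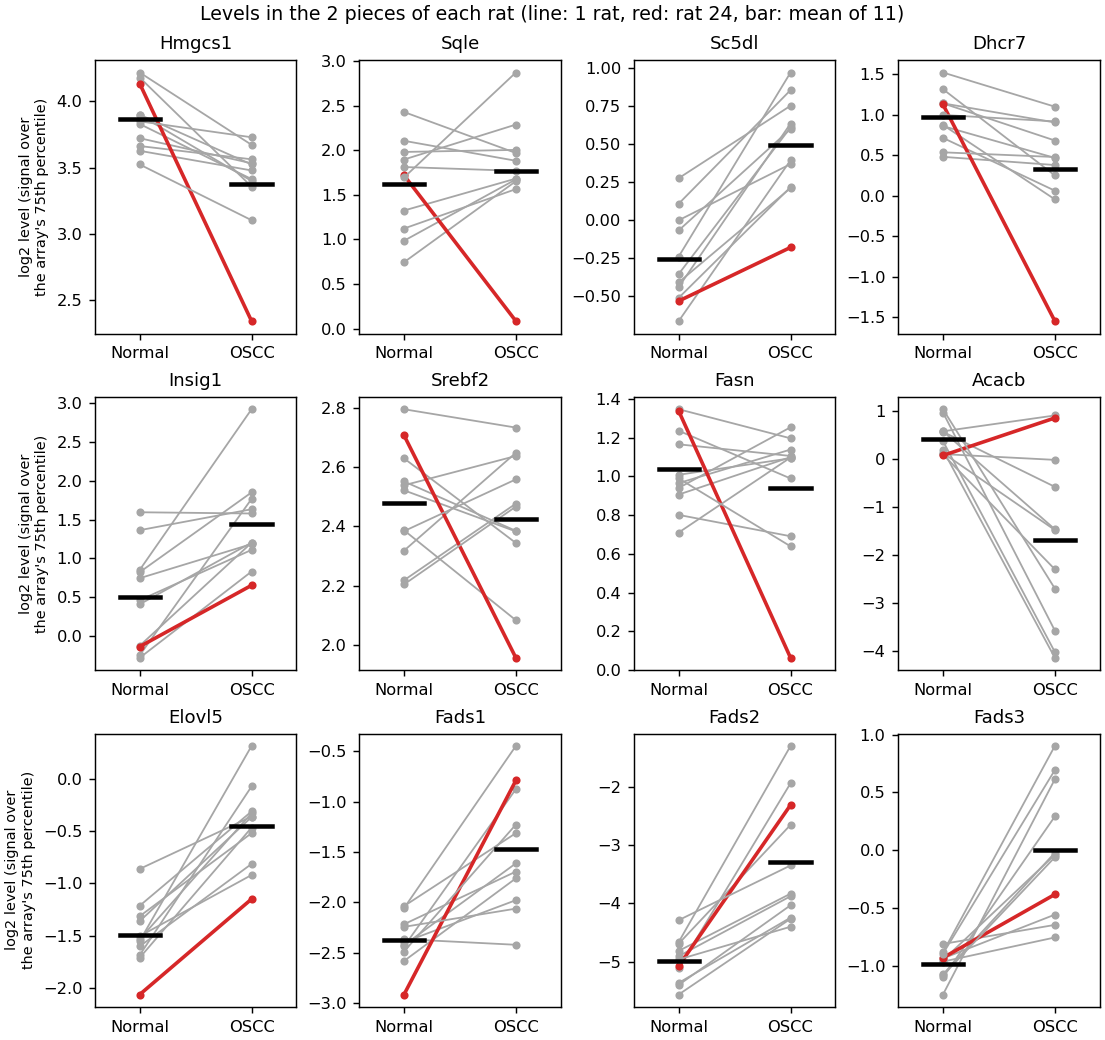
Levels of 12 genes (y axis, log2 signal over the 75th percentile of the array, own scale for each gene) in the normal and OSCC piece of each rat, joined by a line; black bars are means of 11 and red lines are rat 24. All 11 lines rise for Sc5dl, Elovl5, Fads2 and Fads3, and all 11 fall for Hmgcs1 and Dhcr7.

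In the fatty acid arm, the genes that rose by their brightest probes were desaturases and an elongase. Second probes of Elovl1, Elovl4 and Elovl7 also rose, as given below. The enzymes that build palmitate did not pass, and Acaca among them was too dim to judge. Of 14 genes, 4 rose (Fads1, Fads2, Fads3 and Elovl5), 1 fell (Acacb) and 9 did not pass. The share that passed was 35.7%, against 45% of all gene symbols (28.6% higher against 17%, and 7.14% lower against 27.9%). The median of the 14 was 0.005, with a range from -2.11 to 1.70. Acaca was well above background on 0 of 22 arrays, Elovl3 on 1 and Fads2 on 8, all of them OSCC, and the other 11 genes on all arrays.

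The early steps supply acetyl-CoA and malonyl-CoA. Acly, which cleaves citrate, had a difference of -0.16 (adjusted p = 0.35), and Acss2, which activates acetate, of -0.56 (SE 0.22, adjusted p = 0.054); neither passed. Acaca, the cytosolic acetyl-CoA carboxylase that feeds fatty acid synthesis, ran from -6.09 to -4.71 in normal pieces around a median of -5.29, and from -6.67 to -4.70 in carcinomas around -5.80. No array of either tissue was well above background, so no fold is given (difference -0.21, SE 0.26, adjusted p = 0.51 in limma). Fasn, the fatty acid synthase itself, ran from 0.71 to 1.35 in normal pieces around a median of 0.99, and from 0.06 to 1.25 in carcinomas around 1.10. Its ranges overlapped, with 5 rats higher and 6 lower, and the difference of -0.09 (SE 0.14, 95% interval -0.41 to 0.22) did not pass (adjusted p = 0.6 in limma). Without rat 24, at -1.27, the Fasn difference was 0.02 (adjusted p = 0.86). Rat 24 lay far from the other rats for Fasn, so no correlation over all rats is given. Without rats 24 and 25, the 2 farthest from the median, the correlation of Fasn with Acly was 0.72 (Pearson; Spearman 0.73), and none of 13 enzymes passed the two-sided exact permutation test after adjustment over the 13 (adjusted p = 0.1 for Acly). In the 9 pairs scanned on 2 days none passed either (lowest adjusted p = 0.22).

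Acacb encodes the carboxylase of the outer mitochondrial membrane, whose malonyl-CoA restrains fatty acid entry into mitochondria, and which is abundant in muscle. Its level ran from 0.07 to 1.03 in normal pieces around a median of 0.37, and from -4.15 to 0.90 in carcinomas around -1.49. The normal arrays lay close together, 9 OSCC arrays were below all of them, and rats 22 and 24 were higher in OSCC. Acacb fell by 2.11 on the log2 scale (SE 0.53, adjusted p = 0.009 in limma), a 4.32-fold decrease. The differences in rats 4 and 9 were -2.39 and -1.61.

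The Acacb difference moved with that of Ckm, the creatine kinase of skeletal muscle, from rat to rat. Ckm itself fell by 2.19 on the log2 scale (SE 0.59, adjusted p = 0.013), and was higher in OSCC in rats 21, 22 and 24. Over 11 rats the correlation of the differences was 0.98 (Pearson, adjusted permutation p = 0.00028; Spearman 0.92, adjusted p = 0.0067) among 28 relations of Ckm and Adipoq with the 14 enzymes. Without rats 21 and 24, the farthest from the median, it was 0.98, and in the 9 pairs scanned on 2 days also 0.98. Acss2 had a correlation of 0.82 with Ckm (adjusted permutation p = 0.026; Spearman 0.85, adjusted p = 0.017), and 0.83 without those 2 rats. In the 9 pairs it was 0.82 and no longer passed (exact permutation, adjusted p = 0.11). Fads3 ran the other way, at -0.88 (adjusted permutation p = 0.0094; Spearman -0.86, adjusted p = 0.014), and stayed between -0.95 and -0.85 in both reduced sets. By rank, none of the 3 passed in the 9 rats left without rats 21 and 24 (Spearman, exact permutation, adjusted p = 0.057 for Acacb and 0.077 for the others). The unadjusted p of Acacb, 1e-05, is the smallest that 100000 permutations can give. None of the 14 relations with Adipoq, the fat cell hormone adiponectin, passed. The part that the amount of muscle in a piece had in these differences was not tested.

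**Figure D3:**
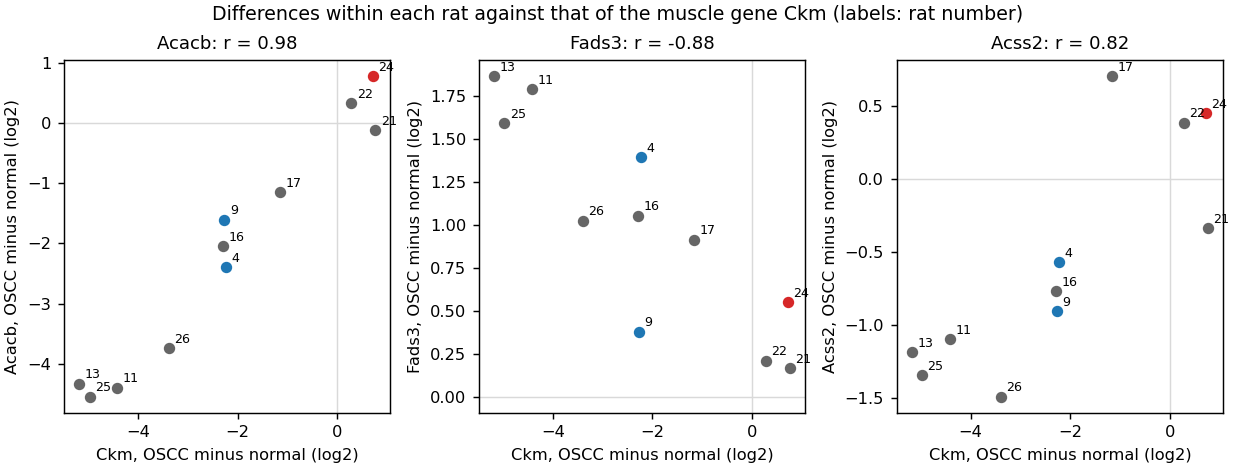
Difference between OSCC and normal tissue in each rat for Acacb, Fads3 and Acss2 (y axes, log2 units) against that for Ckm (x axis, log2 units); each point is 1 of 11 rats with its number, blue for rats 4 and 9 and red for rat 24. Acacb rises along with Ckm (r = 0.98), Acss2 does so more loosely (0.82), and Fads3 falls as Ckm rises (-0.88).

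Elovl5 elongates polyunsaturated fatty acids. Its level ran from -2.06 to -0.86 in normal pieces around a median of -1.53, and from -1.15 to 0.32 in carcinomas around -0.36. Only a little overlap remained, with 9 OSCC arrays above every normal array, and OSCC was higher in all 11 rats. The rise was 2.05-fold (difference 1.04, SE 0.14, 95% interval 0.74 to 1.33, adjusted p = 0.00035 in limma). Its difference was under the 2-fold line with quantile normalization (0.993), median scaling (0.835) and normexp (0.778), and passed the test in each. In rats 4 and 9 the differences were 0.79 and 1.21, and with scan day as a term the difference was 1.00 (unadjusted p = 0.012, adjusted p = 0.085).

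Fads1, Fads2 and Fads3 lie side by side on chromosome 1. FADS1 and FADS2 place double bonds in polyunsaturated fatty acids and work in turn with ELOVL5, and FADS3 acts on sphingoid bases. Fads2 stood well above background on 0 normal arrays and on 8 carcinoma arrays. Its measured level ran from -5.57 to -4.29 in normal pieces around a median of -4.96, and from -4.40 to -1.29 in carcinomas around -3.83, higher in all 11 rats, with 10 OSCC arrays above every normal array. The measured difference was 1.70 (SE 0.28, adjusted p = 0.00087 in limma). Because normal tissue gives only a bound, the fold that can be stated from the scanner's background-subtracted signal is at least 1.5. With normexp background correction the difference was smaller than that bound, at 0.33 (limma, adjusted p = 0.81).

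Fads3 was the single gene of the 35 whose groups did not overlap, as was so for 0.695% of all gene symbols in that direction (0.962% in the other). It ran from -1.25 to -0.81 in normal pieces around a median of -0.95, and from -0.76 to 0.90 in carcinomas around -0.04. The rise was 1.99-fold (0.99, SE 0.18, adjusted p = 0.0017 in limma), just under the 2-fold line. Fads1 rose 1.88-fold (0.91, SE 0.20, adjusted p = 0.0038 in limma) and was higher in 10 of 11 rats, all but rat 21. It did not pass with normexp (adjusted p = 0.1). Without rat 21, Fads1 and Fads3 were also past 2-fold, at 1.00 and 1.08.

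Differences of Fads1 and Fads2 were set beside the serous gland sums after the values were seen, and no correlation was computed. Fads2 had its largest differences in rats 17, 9, 24 and 16, at 3.37, 3.18, 2.77 and 2.04, whose OSCC pieces had summed serous gland markers of 4800, 1800, 2480 and 2510. Rat 4, with a sum of 1090, had a Fads2 difference of 1.37, and the other 6 rats, with sums from 2.21 to 113, had differences from 0.56 to 1.30. Fads1 had its largest differences in rats 24, 17 and 9, at 2.13, 1.61 and 1.56. The order was looser for Fads1, since rat 25, with a sum of 2.78, was at 1.26, while rat 16 was at 0.72 and rat 4 at 0.52. The part that gland tissue in a piece had in either gene was not tested.

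The other elongases, which set the chain length of saturated and very long fatty acids, did not pass with their brightest probes. Differences were 0.39 for Elovl1, -0.25 for Elovl3, 0.10 for Elovl4, -0.35 for Elovl6 and 0.27 for Elovl7, with adjusted p from 0.15 to 0.77. The second probes of Elovl1, Elovl4, Elovl6 and Elovl7 gave other values. That of Elovl4, whose product makes the very long chains of the skin barrier, ran from -4.88 to 0.92 in normal pieces around a median of -2.64, and from -1.68 to 1.87 in carcinomas around 1.11. OSCC was higher in all 11 rats, by 3.21 (SE 0.54, adjusted p = 0.001 in limma), while the brighter probe was higher in 6 rats. Of its arrays, 7 normal ones and all 11 of OSCC were well above background. This second probe lies on chromosome 8 in assembly rn4, at chr8:88859641-88859700, 5801 bases from the brighter one.

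For Elovl7 the second probe, 1925 bases from the first on chromosome 2, ran from -3.96 to -0.40 in normal pieces around a median of -2.23, and from -1.46 to 0.34 in carcinomas around -0.34. It was higher in all 11 rats, by 1.98 (SE 0.25, adjusted p = 0.00026). The second Elovl1 probe, 562 bases away and assigned to the same transcript, had a difference of 1.07 (SE 0.22, adjusted p = 0.0027), higher in 10 rats. The second Elovl6 probe turned the sign, to 0.68, and did not pass (adjusted p = 0.05 when rounded). The probes for Elovl4 and Elovl7 are assigned to different transcript records, and which transcripts they detect in these tissues was not tested. When all probes of a gene were averaged, 8 of the 14 genes passed in place of 5, and 5 were called in place of 3. Among all 19167 gene symbols, averaging gave 1438 called higher and 1310 lower, against 1434 and 1388 with the brightest probe. The share of all gene symbols that passed after averaging is not given here, so the 8 cannot be set against a background.

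**Figure D4:**
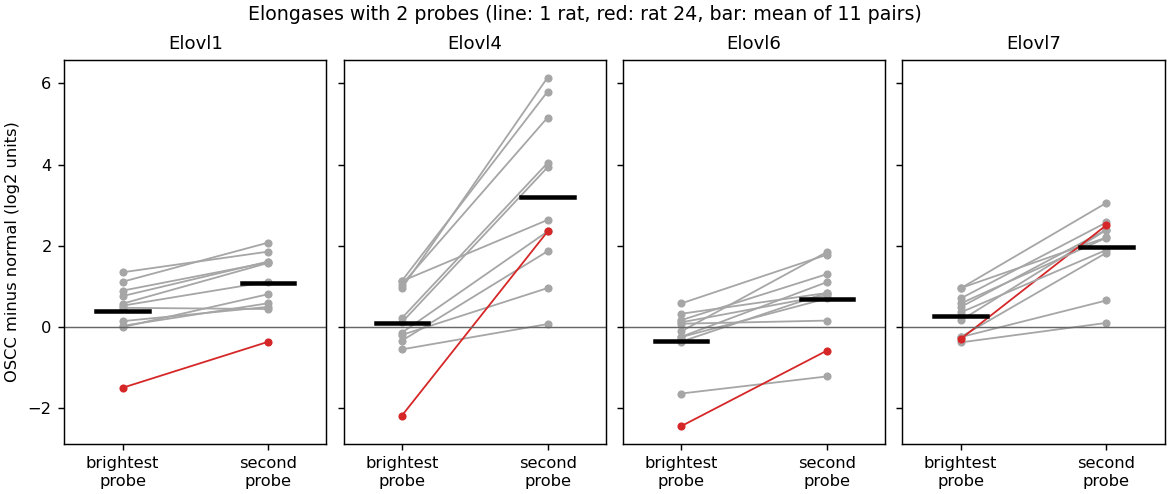
Difference between OSCC and normal tissue (y axis, log2 units) by the brightest and the second probe of Elovl1, Elovl4, Elovl6 and Elovl7; each line is 1 rat, red is rat 24, and black bars are means of 11 pairs. The mean of the second probe is higher for all 4 genes, most for Elovl4, at 3.21 against 0.10.

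Neighbouring pathways were described by lists chosen for function. Of 23 other genes of sterol and lipid synthesis, 10 rose and 1 fell (43.5% and 4.35%, against backgrounds of 17% and 27.9%), with a median difference of 0.34. Thrsp, a regulator of lipogenesis, was the most changed; it ran from -6.47 to -0.77 in normal pieces around a median of -5.03, and from -5.80 to 4.43 in carcinomas around 0.16, overlapping but higher in 10 rats. Its measured difference was 4.15 (SE 1.09, adjusted p = 0.011 in limma), but its signal exceeded background clearly on only 4 normal arrays and 10 of OSCC. This call was lost in the 9 pairs scanned on 2 days (adjusted p = 0.065) and with normexp (adjusted p = 0.085). Acsl1, an acyl-CoA synthetase with a large role in fatty acid oxidation in muscle, fell by 1.49 (SE 0.32, adjusted p = 0.0039) on the log2 scale.

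Of 14 genes of sterol uptake, transport and storage that were found among 16 listed, 6 rose and 0 fell (42.9% higher, against 17% of all gene symbols, and 0% lower, against 27.9%), with a median difference of 0.32. Soat1, which esterifies cholesterol for storage, stood well above background on 0 normal arrays and on 11 carcinoma arrays. Its level in OSCC was higher by at least 5.12-fold (limma, adjusted p = 0.00014). Npc2, which moves cholesterol out of lysosomes, rose 2.53-fold (1.34, SE 0.15, adjusted p = 0.00018), and Stard5, a cytosolic sterol carrier, rose 2.29-fold (1.20, SE 0.14, adjusted p = 0.00021). All 3 were higher in all 11 rats. Macrophage markers were higher for 5 of 6 genes, with summed levels of 1.2 to 3.41 in normal tissue and 2.23 to 10.3 in OSCC. Soat1 did not follow these sums in every rat. Rat 17 had the lowest OSCC sum, 2.23, and the largest Soat1 difference after quantile normalization, 5.5. Its serous gland sum, 4800, was the highest among OSCC pieces. Rat 25 had the highest macrophage sum, 10.3, and a Soat1 difference of 3.4 after the same normalization. The sums are of the OSCC piece alone and were not quantile normalized. The part of macrophages or of gland tissue in these values was not tested.

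Fatty acid uptake and oxidation went the other way. Of 19 genes, 0 rose and 13 fell (68.4%, against 27.9% of all gene symbols), all 13 by more than 2-fold, with a median of -1.18. Fabp3, the fatty acid binding protein of heart and muscle, fell by 2.37 (SE 0.55, adjusted p = 0.006) on the log2 scale. Cpt1b, the muscle form of the carnitine transferase that malonyl-CoA inhibits, fell by 2.02 (SE 0.44, adjusted p = 0.0044). Acadm, which oxidizes medium chains, fell by 1.99 (SE 0.39, adjusted p = 0.0023). Each of the 3 was higher in OSCC in 2 rats. Muscle markers were lower in OSCC for 6 of 8 genes. No correlation of this list with them was computed, and their part in it was not tested.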

How the data were processed

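RNA of 22 tissue pieces from 11 rats was hybridized to Agilent Rat GE 4x44K v3 arrays, and the authors deposited the output of Agilent Feature Extraction (9.5.3.1, per the file headers), whose intensity columns hold background-subtracted spot signals in one colour. The authors also deposited a table per probe of linear ratios of this signal to a scale of each array (its 75th percentile, as found by setting the table against the scanner values); their log2 was used as an alternative. For the present values, control spots and 9196 outlier spots (0.975%) were left out, log2 of the processed signal was set against the 75th percentile of each array, and spots of a probe were averaged, which gave 30367 probes. OSCC was compared with normal tissue in limma 3.58.1 (R 4.3.3) with rat as block, since each rat gave both tissues, and p-values were adjusted by Benjamini-Hochberg over all probes. A gene passed the test at an adjusted p below 0.05 and was called where the change also reached 2-fold. The fit was tested on simulated data with known changes. Relations over rats were tested with 100000 permutations, or exactly for 9 rats (scipy 1.17.1). Intervals are at 95%.

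Full values are given for the called genes of each list (at most 5 a direction, by size of the difference) and for Srebf1, Srebf2, Insig1, Hmgcs1, Sqle, Fasn and Acaca whatever their result; the 3 called genes with the largest difference are named from each neighbouring pathway, of which an item is not reported here. Other genes named were chosen after their values were seen. The genes and lists were chosen with earlier results of these data known. A fold against a group not well above background is a bound: the mean of the bright group against, per array, the higher of the lowest signal well above background and the probe's own. Alternatives were quantile normalization, scaling to the array median or to the percentile of detected probes, normexp with offset 50, the authors' scaled values, mean of all probes, dim probes left out, outlier spots kept, the methods' t-test, no fold minimum, scan day, slide, no block and leaving out rats. The number of arrays limits the precision. Positions are those of the array's annotation (rn4), and promoters are from RefSeq (GRCr8).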

Additional observations from a re-analysis of the deposited data

How the results depend on the processing

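Among the cholesterol synthesis enzymes, 7 passed the test and 0 were called in the 11 pairs. Counts of those that passed were 3 with normexp, 4 with slide as a random block, 0 with scan day as a term and 5 to 12 with 1 rat left out, the highest without rat 24; 7 were called with no fold minimum. Of the regulators, 3 passed, and 0 with scan day; 0 were called, against 1 (Insig1) with the percentile of detected probes, 1 in the 9 pairs scanned on 2 days, 3 with no fold minimum and 0 to 1 with 1 rat left out (1 without rat 4, 16 or 26). Of the fatty acid enzymes, 5 passed, against 3 with normexp, 0 with scan day, 8 with the mean of all probes and 5 to 7 with 1 rat left out. In that list 3 were called, against 1 with normexp, 0 with scan day, 5 with the mean of all probes and 5 with no fold minimum. With 1 rat left out 2 to 5 were called, the highest without rat 21. With quantile normalization, and also with array median scaling, 1 was called higher and 1 lower. Of the genes of neighbouring pathways, 30 passed, 0 with scan day and 28 to 35 with 1 rat left out; 21 were called, 12 with normexp, 0 with scan day and 18 to 23 with 1 rat left out. With scan day the tissue difference rests on 2 rats, so few genes could pass; for the other settings the cause was not tested.

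The pairs come from 1 animal giving both tissues, although the correlation of paired deviations from the group means ran from -0.21 to 0.24 (median -0.025). Without the replicate block, 8 cholesterol enzymes passed and 0 were called, 3 regulators passed and 0 were called, 5 fatty acid enzymes passed and 3 were called, and 34 genes of neighbouring pathways passed and 21 were called. The methods' t-test with 2-fold called 0, 0, 3 and 21 genes of these lists at their unadjusted threshold, and the same counts after Benjamini-Hochberg.

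Changes of sign were found only for genes that did not pass in the 11 pairs. With quantile normalization the differences became 0.004 for Ebp, 0.236 for Elovl3 and 0.035 for Srebf2; with array median scaling, -0.097 for Elovl4, -0.156 for Mvk, -0.187 for Pmvk and -0.053 for Sqle; with the percentile of detected probes, 0.034 for Srebf2 and 0.006 for Tm7sf2. With normexp they became 0.001 for Elovl3, -0.068 for Mvk and -0.097 for Pmvk, with the authors' scaled values 0.047 for Elovl3, with the mean of all probes 0.168 for Elovl6, and with slide as a block -0.001 for Pmvk. With scan day they became -0.172 for Elovl4, -0.050 for Elovl7, -0.097 for Hsd17b7, -0.031 for Mvd, -0.088 for Mvk, -0.245 for Pmvk and -0.342 for Sqle. In the 9 pairs they became 0.001 for Acaca and 0.012 for Tm7sf2, and without rats 21, 22 and 24, 0.028 for Ebp, 0.021 for Fasn, -0.092 for Pmvk and 0.080 for Srebf2. With 1 rat left out, the differences ran from -0.022 to 0.139 for Mvk, -0.073 to 0.064 for Pmvk, -0.163 to 0.011 for Ebp, -0.091 to 0.017 for Srebf2 and -0.142 to 0.023 for Fasn.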
